A study of Mus musculus with 40 samples.

Results

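The 7 genes described here belong to the Hippo pathway and were followed in mouse thymocytes, across both sorted stages and every condition of the study: the giant cadherin Fat4, the scaffold Sav1, the kinases Stk3, Stk4, Lats1 and Lats2, and the tumor suppressor Nf2. Their rows were taken by gene symbol from the 3 count tables, 7 of 23284 genes in the table of the pI-pC and antibody libraries and 7 of 23107 in each tamoxifen table. The set was chosen by the measured levels of Fat4 and Sav1, which had been seen to be low in DN3 cells after pI-pC deletion of Zmiz1, so that comparison is a description with no test for any of the 7 genes. The other comparisons used other libraries and were tested.

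The Hippo pathway is a kinase cascade. Stk3 and Stk4 (Mst2 and Mst1), held by Sav1, activate Lats1 and Lats2, which phosphorylate the co-activators Yap1 and Wwtr1 and keep them out of the nucleus. Nf2 (merlin) recruits the Lats kinases to the membrane, and Fat4 is the vertebrate homolog of the fly cadherin Fat, which acts upstream of the cascade in Drosophila. In lymphocytes Stk4 is known for a role beyond Yap1, through Rassf5, Mob1, Dock8 and the integrin Lfa-1, in adhesion and in the exit of thymocytes from the thymus.

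RNA was sequenced from 40 libraries of sorted early T-cell precursors (ETP), the earliest T-lineage cells of the thymus, and of double-negative 3 (DN3) cells, the stage at which the T-cell receptor beta chain is rearranged. DeltaMxCre libraries came from MxCreZmiz1f/f mice and MxCre libraries from mice with the Cre alone. Both received pI-pC, which induces MxCre in blood-forming and other cells, in 5 injections of 40 mcg each, 2 days apart. They were sorted 8 weeks later (3 mice per group). DeltaTamCre libraries came from Rosa26CreERT2Zmiz1f/f mice and TamCre libraries from Rosa26CreERT2 mice. Both received tamoxifen at 0.2 mg/g, which activates a Cre present in all tissues, and were sorted at 43 to 44 hours (4 mice per group). AntiNRR libraries came from mice given 10 mg/kg of an anti-NRR antibody, which binds Notch1 at its negative regulatory region and blocks it, and IgG libraries from mice given the isotype control. They were sorted at 24 hours, 3 libraries per group, and the labels give no number of mice, so their p-values measure only the spread between these libraries. All mice were C57BL/6, and Zmiz1 encodes a co-activator of Notch1. Ages and sexes were not given in the sources used here.

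The deletion could be read from Zmiz1 itself, of which every deleted library held less than any of its own controls, for example 113 to 129 CPM in DeltaMxCre DN3 against 286 to 349 CPM in MxCre DN3. CPM, the depth-scaled count of a gene, were scaled by TMM over each whole table. Library depth was 9456818 to 23962395 counts for the pI-pC and antibody libraries, 48127197 to 91659598 counts for DN3 after tamoxifen and 17418638 to 30975324 counts for ETP after tamoxifen. The labels give DN3 cells the surface phenotype CD44+CD25-, yet the transcripts of Cd44 and Ptcra separated the stages in IgG libraries. Cd44 stood at 2.30 to 2.74 CPM in IgG DN3 and at 47.9 to 136 CPM in IgG ETP, and Ptcra, which pairs with the rearranged beta chain, at 198 to 219 CPM in IgG DN3 and 25.5 to 41.6 CPM in IgG ETP. Il2ra, the gene of CD25, separated them less, at 3075 to 3667 CPM in IgG DN3 and 1852 to 2568 CPM in IgG ETP. Its stages overlapped under AntiNRR (528 to 824 CPM in DN3, 270 to 1026 CPM in ETP). They also overlapped in DeltaMxCre libraries (4277 to 5732 CPM in DN3, 4571 to 5021 CPM in ETP). In the DeltaMxCre ETP libraries the 7 DN3 markers summed to 6301 to 7082 CPM, against 2547 to 3352 CPM in MxCre ETP, and the 7 ETP markers to 352 to 447 CPM against 722 to 1000.2 CPM. The tamoxifen ETP libraries were uneven in markers of other cells. Their 8 double-positive and later thymocyte markers summed to 178 to 1874 CPM in DeltaTamCre and 220 to 923 CPM in TamCre. Cd8a alone held 16.8 to 341 and 10.2 to 178 CPM. The 8 natural killer and innate lymphoid markers summed to 78.8 to 960 CPM in DeltaTamCre ETP and 121 to 446 CPM in TamCre ETP. What this unevenness does to the tamoxifen ETP values below was not tested. The libraries are bulk samples, in which fewer cells of a type and less RNA per cell cannot be told apart.

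The 250 bases before the annotated start of Fat4 and of Sav1 are shown because these are the genes that stood low in DeltaMxCre DN3 (RefSeq, GRCm38.p6). The Fat4 window lies at chr3:38886690-38886939, plus strand, and the Sav1 window at chr12:69987003-69987252, minus strand.
Fat4 promoter: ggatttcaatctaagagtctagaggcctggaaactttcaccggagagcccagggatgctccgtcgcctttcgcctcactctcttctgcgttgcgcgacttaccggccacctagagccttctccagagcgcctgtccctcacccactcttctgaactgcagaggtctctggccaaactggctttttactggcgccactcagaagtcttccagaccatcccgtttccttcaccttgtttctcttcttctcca
Sav1 promoter: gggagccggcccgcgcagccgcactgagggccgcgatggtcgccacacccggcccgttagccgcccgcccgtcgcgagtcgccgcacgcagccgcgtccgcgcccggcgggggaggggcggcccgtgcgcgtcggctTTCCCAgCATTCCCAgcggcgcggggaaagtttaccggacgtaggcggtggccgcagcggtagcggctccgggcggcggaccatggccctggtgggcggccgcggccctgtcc
Capitals mark matches to 2 short motifs searched on both strands, the core TGGGAA bound by Rbpj, the DNA-binding partner of Notch1, and the core GGAATG bound by the Tead factors. The Sav1 window held TGGGAA at 2 places, 113 and 104 bases before the start, and GGAATG at 1 place, 106 bases before it and overlapping the nearer TGGGAA, all on the opposite strand. The Fat4 window held neither. TGGGAA was in 21.6% and GGAATG in 12.6% of 32851 windows of the same length, so these matches describe the letters only. The windows also differed in composition, with 54.8% G and C and 11 CpG sites before Fat4 and 79.2% and 43 before Sav1. Stk4 and Lats1 had 1 such window each and Lats2 and Nf2 had 2 each.

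Per length, Stk4 was the most abundant of the 7 genes in every group, and Fat4 the least abundant in every group. In IgG DN3 libraries the mean level in CPM per kb of exon was 64.3 for Stk4, 17.9 for Lats1, 10.7 for Nf2, 4.56 for Stk3, 3.83 for Sav1, 3.47 for Lats2 and 1.67 for Fat4. The SDs of Stk3, Sav1 and Lats2 overlapped, so these neighbours did not differ beyond their spread. In IgG ETP libraries the order was Stk4 (65.3), Lats1 (9.91), Nf2 (9.41), Sav1 (7.14), Lats2 (6.67), Stk3 (4.71) and Fat4 (0.117). The levels use the union of GENCODE M21 exons as length, and they were not compared between tables made with different kits. The order in the middle depends on that length. With the longest transcript instead, Stk4 stayed first and Fat4 last in all 12 groups and the IgG DN3 order was the same, with Stk3 at 8.46 and Sav1 at 6.00 CPM per kb. In IgG ETP that length gave Nf2 (13.6), Sav1 (11.2), Lats1 (10.03), Lats2 (8.96) and Stk3 (8.73) between Stk4 and Fat4, and neighbours among these 5 overlapped within 1 SD.

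**Figure D1:**
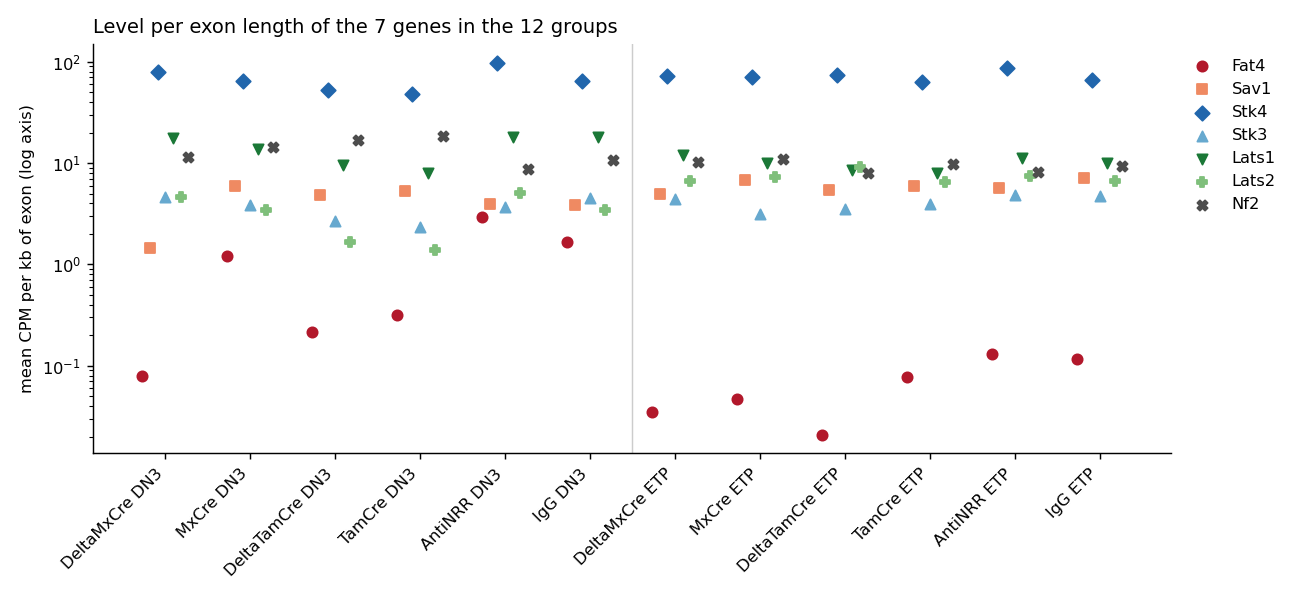
Mean level per exon length (CPM per kb, log axis) of the 7 genes in the 12 groups, DN3 left of the line and ETP right of it, with each deleted or antibody group left of its control. Stk4 lies at the top of every group, and Fat4 lies far below the other 6 in all ETP groups and nearest to them in AntiNRR DN3, at 2.91 CPM per kb, among the pI-pC and antibody groups.

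Fat4 (chr3:38886940-39011985, plus strand, GRCm38) was far more abundant in DN3 than in ETP in the IgG and AntiNRR libraries. Its exons overlap antisense gene models, C230034O21Rik over 7.04% and Gm43539 over 1.64% of its exon bases. In IgG libraries it had 27.3, 29.8 and 28.7 CPM in DN3 against 1.86, 2.99 and 1.19 CPM in ETP. Under AntiNRR it had 57.6, 49.8 and 42.2 CPM in DN3 against 3.21, 1.56 and 1.93 CPM in ETP. Within IgG and within AntiNRR, no DN3 library came near an ETP library. The difference was 14.4-fold in IgG (log2 fold change 3.85, SE 0.390, edgeR quasi-likelihood adjusted p = 1.07e-05) and 22.5-fold under AntiNRR (4.49, SE 0.365, edgeR adjusted p = 7.22e-06), and both calls were kept under each of 11 alternatives. The share of all genes called between stages was 14.7% in IgG (7.12% higher and 7.6% lower in DN3) and 11.6% under AntiNRR (5.75% higher and 5.87% lower).

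After pI-pC deletion of Zmiz1, Fat4 in DN3 stood at 0.673, 1.90 and 1.501 CPM in DeltaMxCre libraries, against 21.1, 31.8 and 9.01 CPM in MxCre libraries. The groups did not overlap, and the MxCre libraries spread widely among themselves, with replicate 3 the lowest. The means were 1.36 ± 0.624 CPM in DeltaMxCre DN3 and 20.6 ± 11.4 CPM in MxCre DN3 (SD, n = 3 each), 14.9-fold lower after deletion (log2 fold change -3.89, SE 0.497, between -4.25 and -3.44 when any library is left out). The deleted DN3 libraries lay within the range of the 12 ETP libraries of the same table, 0 to 3.21 CPM, whereas the other 9 DN3 libraries of that table held 9.01 to 57.6 CPM. These values chose the gene and carry no test. By edgeR 1.44% of all 12675 genes were called there, 0.986% higher and 0.458% lower, a share from which nothing is read for Fat4 or Sav1. In ETP, where Fat4 is near 0 in any case, DeltaMxCre libraries held 1.81, 0 and 0 CPM and MxCre libraries 0.983, 1.41 and 0 CPM. That is 26 counts in all against 39, and the depth cannot show a difference of such values (log2 fold change -0.42, SE 2.62, edgeR adjusted p = 0.996).

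**Figure D2:**
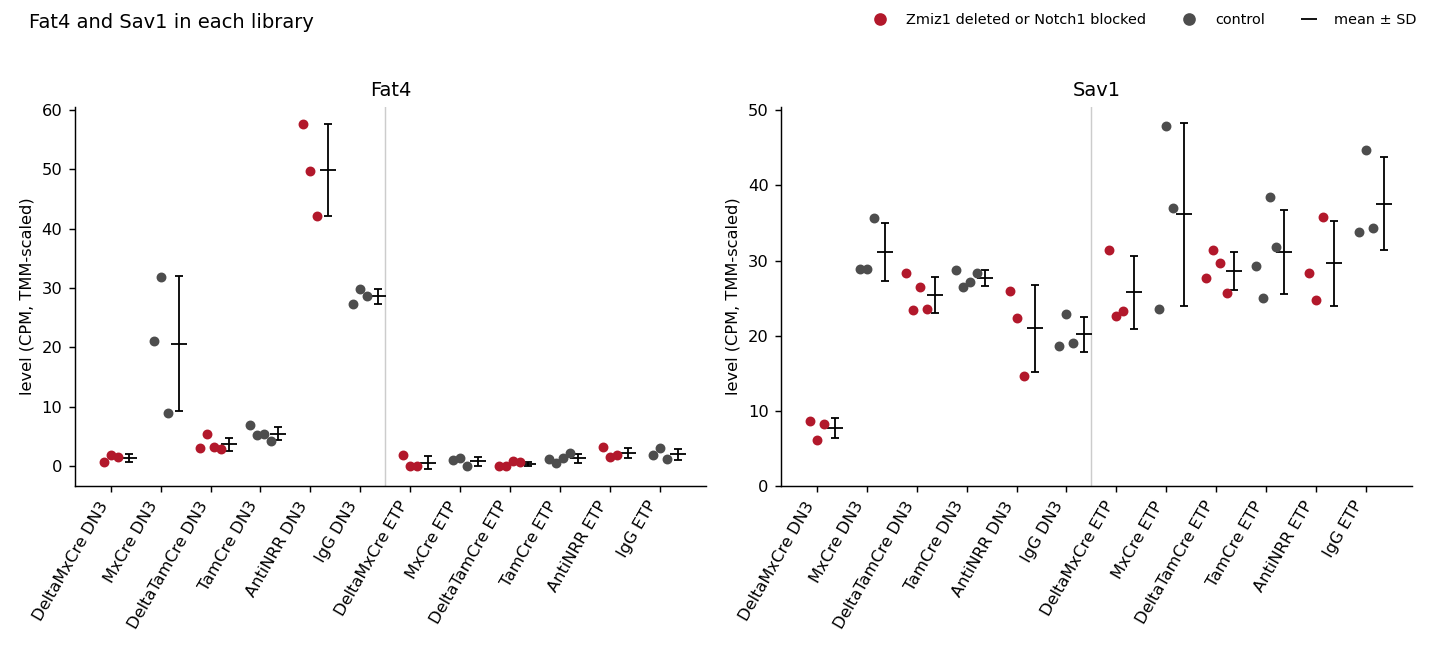
Level of Fat4 (left) and Sav1 (right) in CPM in each of the 40 libraries, DN3 groups left of the line and ETP groups right of it, each deleted or antibody group (red) left of its control (grey), with the mean ± SD beside the points. Among the pI-pC and antibody groups, Fat4 is high in MxCre, AntiNRR and IgG DN3 and near 0 in DeltaMxCre DN3 and in ETP, and Sav1 is lowest in DeltaMxCre DN3, at 6.16 to 8.60 CPM. The tamoxifen groups come from other tables and are read within their own pairs.

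In DN3 cells 43 to 44 hours after tamoxifen, Fat4 had 3.06, 5.37, 3.26 and 2.92 CPM in DeltaTamCre libraries, against 6.89, 5.29, 5.36 and 4.30 CPM in TamCre libraries. DeltaTamCre replicates 1, 3 and 4 lay below every control, and replicate 2 lay among the controls. The means were 3.65 ± 1.15 CPM in DeltaTamCre DN3 and 5.46 ± 1.07 CPM in TamCre DN3 (SD, n = 4 each). The log2 fold change of -0.58 (SE 0.224) did not pass (edgeR adjusted p = 0.251, DESeq2 adjusted p = 0.131), and over 13 alternatives the edgeR or DESeq2 adjusted p ran from 0.120 to 0.587. Of all genes, 0.0827% were called in this comparison, 0.0526% higher and 0.0301% lower. In ETP after tamoxifen, Fat4 had 0, 0, 0.786 and 0.639 CPM in DeltaTamCre libraries and 1.18, 0.469, 1.38 and 2.24 CPM in TamCre libraries, with log2 fold change -1.85 (SE 1.18, edgeR adjusted p = 0.907).

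Under the Notch1 block Fat4 was higher, not lower, in DN3. The AntiNRR DN3 libraries listed above held 49.9 ± 7.72 CPM and the IgG DN3 libraries 28.6 ± 1.29 CPM (SD, n = 3 each), and the groups did not overlap. The difference was 1.73-fold (log2 fold change 0.79, SE 0.196, edgeR adjusted p = 0.0163, DESeq2 adjusted p = 0.00165). The call was lost with a spread shared by all 4 DN3 groups (edgeR adjusted p = 0.209), without AntiNRR DN3 replicate 1 (0.0851) and without IgG DN3 replicate 1, 2 or 3 (0.0704, 0.0622 and 0.0730), while the log2 fold change stayed between 0.67 and 0.90. In ETP the means were 2.23 ± 0.866 CPM in AntiNRR and 2.01 ± 0.908 CPM in IgG, and the groups overlapped (log2 fold change 0.15, edgeR adjusted p = 1.00). The antibody effect was not shown to differ between stages (difference of log2 fold changes 0.64, SE 0.490, edgeR adjusted p = 0.948). Whether the effects of the antibody and of Zmiz1 deletion on Fat4 in DN3 differ was not tested, since the second chose the gene.

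Sav1 (chr12:69965012-69987002, minus strand), the scaffold that couples Stk3 and Stk4 to the Lats kinases, had 8.60, 6.16 and 8.26 CPM in DeltaMxCre DN3 libraries, against 28.9, 28.9 and 35.6 CPM in MxCre DN3 libraries. All 3 deleted libraries lay below each of the other 21 libraries of the same table, whose lowest was 14.6 CPM. The means were 7.67 ± 1.32 CPM in DeltaMxCre DN3 and 31.1 ± 3.87 CPM in MxCre DN3 (SD, n = 3 each), 4.06-fold lower after deletion (log2 fold change -2.02, SE 0.255, between -2.11 and -1.88 when any library is left out). These values, too, chose the gene and carry no test. Sav1 shares 1336 exon bases, 25.4% of its exon length, with Atl1 on the plus strand, and whether the authors' counting used strand was not given in the sources used here. Atl1 itself held 0 CPM in DeltaMxCre DN3 and 1.39 to 2.20 CPM in MxCre DN3 (looked up after the values of Sav1 were seen). Atl1 was also at 0 CPM in DeltaMxCre ETP, where Sav1 had 22.6 to 31.4 CPM, and in TamCre DN3, where Sav1 had 26.5 to 28.8 CPM. In IgG DN3 Atl1 held 0.651 to 0.774 CPM. The part of the overlap in the level of Sav1 was not tested.

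In the other comparisons of treatments Sav1 passed no test. In tamoxifen DN3 libraries it had 28.4, 23.4, 26.5 and 23.5 CPM in DeltaTamCre and 28.8, 26.5, 27.1 and 28.3 CPM in TamCre, groups that overlapped (log2 fold change -0.12, SE 0.0891, edgeR adjusted p = 0.542). In antibody DN3 libraries it had 25.9, 22.3 and 14.6 CPM in AntiNRR and 18.6, 22.9 and 19.1 CPM in IgG (0.04, SE 0.275, edgeR adjusted p = 0.967). In ETP it had 31.4, 22.6 and 23.3 CPM in DeltaMxCre against 23.5, 47.9 and 37.0 CPM in MxCre (-0.49, SE 0.369, edgeR adjusted p = 0.996). The ETP means were 28.6 ± 2.47 CPM in DeltaTamCre and 31.1 ± 5.62 CPM in TamCre (SD, n = 4 each; edgeR adjusted p = 0.933), and 29.7 ± 5.67 CPM in AntiNRR and 37.6 ± 6.15 CPM in IgG (SD, n = 3 each; edgeR adjusted p = 0.972).

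By stage, Sav1 ran opposite to Fat4 in IgG libraries. It had 18.6, 22.9 and 19.1 CPM in DN3 against 33.7, 44.7 and 34.3 CPM in ETP, 1.86-fold lower in DN3 with no overlap (log2 fold change -0.90, SE 0.236, edgeR adjusted p = 0.0167). The call was lost without IgG DN3 replicate 1 (0.0724), IgG DN3 replicate 3 (0.0815) or IgG ETP replicate 2 (0.0605). Under AntiNRR the stages overlapped (-0.49, SE 0.307, edgeR adjusted p = 0.361). The stages also overlapped in MxCre libraries, at 28.9 to 35.6 CPM in DN3 and 23.5 to 47.9 CPM in ETP, with no test. All MxCre DN3 libraries lay above all IgG DN3 libraries.

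Stk4 (chr2:164070322-164155524, plus strand), the Mst1 kinase, was higher in DN3 under the Notch1 block. It had 566, 559 and 600 CPM in AntiNRR DN3 libraries against 389, 364 and 377 CPM in IgG DN3 libraries. The groups lay far apart, and each varied little within itself. The difference was 1.51-fold (log2 fold change 0.60, SE 0.0898, edgeR adjusted p = 0.000149), and the call was kept under each of 12 alternatives. In ETP, Stk4 had 543, 462 and 535 CPM in AntiNRR libraries against 408, 393 and 347 CPM in IgG libraries, again with no overlap, but it did not pass over all genes (log2 fold change 0.42, SE 0.157, unadjusted p = 0.0163 and adjusted p = 0.783 by edgeR's quasi-likelihood test). In that comparison edgeR called 0 of 12568 genes, with 687 at an unadjusted p under 0.05 and 28 called by DESeq2. The 2 antibody effects on Stk4 were not shown to differ (0.19, SE 0.175, edgeR adjusted p = 0.963), and between stages it did not pass in IgG (-0.02, edgeR adjusted p = 0.934) or AntiNRR libraries (0.17, edgeR adjusted p = 0.515).

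**Figure D3:**
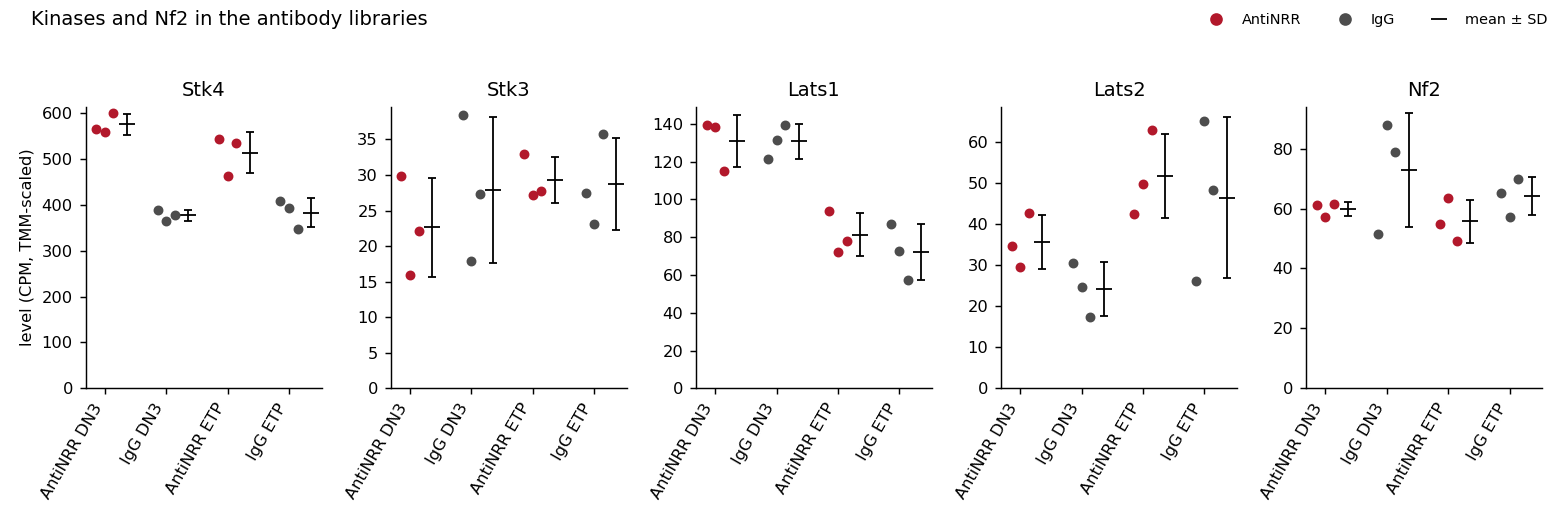
Levels in CPM of Stk4, Stk3, Lats1, Lats2 and Nf2 in each of the 12 antibody libraries, AntiNRR (red) left of IgG (grey) and DN3 left of ETP, with the mean ± SD beside the points and each axis starting at 0. The 3 AntiNRR DN3 libraries of Stk4 sit between 559 and 600 CPM, all above the 3 IgG DN3 libraries, and Lats1 is higher in the DN3 than in the ETP groups.

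After Zmiz1 deletion Stk4 passed in no tested comparison. In DN3 after pI-pC it had 452, 476 and 451 CPM in DeltaMxCre and 374, 362 and 398 CPM in MxCre, without overlap and with no test (log2 fold change 0.28, SE 0.117). In DN3 after tamoxifen it had 279, 333, 314 and 299 CPM in DeltaTamCre and 298, 261, 282 and 284 CPM in TamCre, which overlapped (0.13, SE 0.0774, edgeR adjusted p = 0.464). In ETP after tamoxifen it ranged between 353 and 482 CPM in DeltaTamCre and between 361 and 372 CPM in TamCre (0.23, edgeR adjusted p = 0.907). The pI-pC ETP libraries ranged between 400.1 and 464 CPM in DeltaMxCre and between 313 and 464 CPM in MxCre (0.05, edgeR adjusted p = 0.996).

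Stk3 (chr15:34875496-35178921, minus strand), the Mst2 kinase, passed in no comparison. Its DN3 levels were 28.4 ± 6.12 CPM in DeltaMxCre and 23.5 ± 4.07 CPM in MxCre, 16.4 ± 2.36 CPM in DeltaTamCre and 14.3 ± 1.46 CPM in TamCre, and 22.7 ± 6.95 CPM in AntiNRR and 27.9 ± 10.3 CPM in IgG (SD, n = 3, 4 and 3 each). In every one of the 6 comparisons its groups overlapped. Stk3 and Stk4 are paralogs that can act for each other, and per length Stk4 was the more abundant in all 12 groups.

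Lats1 (chr10:7681214-7716460, plus strand), a kinase that phosphorylates Yap1, was higher in DN3 than in ETP. In IgG libraries it had 121, 132 and 140 CPM in DN3 against 86.8, 72.8 and 57.3 CPM in ETP, 1.81-fold with no overlap (log2 fold change 0.86, SE 0.161, edgeR adjusted p = 0.00190), and the call was kept under each of 11 alternatives. Under AntiNRR it had 139, 138 and 115 CPM in DN3 against 94.0, 72.0 and 77.9 CPM in ETP, 1.62-fold (0.69, SE 0.172, edgeR adjusted p = 0.0164). That call was lost without AntiNRR DN3 replicate 1 (0.0813), AntiNRR DN3 replicate 2 (0.104) or AntiNRR ETP replicate 2 (0.0524). Between AntiNRR and IgG DN3 libraries Lats1 overlapped and did not pass (-0.01, SE 0.120, edgeR adjusted p = 0.9799).

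In DN3 after tamoxifen Lats1 had 71.8, 68.8, 63.1 and 75.6 CPM in DeltaTamCre libraries, against 57.0, 62.1, 57.6 and 58.6 CPM in TamCre libraries. Every deleted library lay above every control, by a small amount (1.19-fold, log2 fold change 0.25, SE 0.0713), and the difference did not pass over all genes (unadjusted p = 0.00497 and adjusted p = 0.164 by edgeR's quasi-likelihood test, DESeq2 adjusted p = 0.0620). After pI-pC the DN3 values were 116, 142 and 126 CPM in DeltaMxCre and 101, 116 and 84.1 CPM in MxCre, which overlapped narrowly (0.35, SE 0.149, no test).

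Lats2 (chr14:57689662-57758388, minus strand), the second Lats kinase, was lower in DN3 than in ETP. It had 30.5, 24.7 and 17.4 CPM in IgG DN3 against 26.1, 65.2 and 48.2 CPM in IgG ETP. The ranges overlapped through IgG ETP replicate 1, and the call stood at the threshold (log2 fold change -0.94, SE 0.303, edgeR adjusted p = 0.0498). It was lost with a filter at a mean of 10 counts (0.05002), with the replicate number as a block (0.0737), and without IgG DN3 replicate 1 (0.0502), IgG DN3 replicate 2 (0.152), IgG DN3 replicate 3 (0.207), IgG ETP replicate 2 (0.198) or IgG ETP replicate 3 (0.0724). Under AntiNRR it had 35.6 ± 6.66 CPM in DN3 and 51.8 ± 10.3 CPM in ETP (SD, n = 3 each; -0.53, edgeR adjusted p = 0.187). In the treatment comparisons it passed in none, with 35.6 ± 6.66 CPM in AntiNRR DN3 and 24.2 ± 6.57 CPM in IgG DN3 (0.54, edgeR adjusted p = 0.240). In the tamoxifen ETP libraries it ranged between 43.5 and 98.7 CPM in DeltaTamCre and between 38.8 and 56.3 CPM in TamCre (0.47, edgeR adjusted p = 0.907). Lats2 shares 42.4% of its exon bases with the gene model Gm49361 on the same strand, so how the authors' counting split their reads can move its level.

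Nf2 (chr11:4765845-4849536, minus strand), the merlin protein upstream of Lats, passed in no comparison. In ETP after tamoxifen it had 58.8, 49.4, 52.7 and 59.3 CPM in DeltaTamCre libraries and 60.03, 73.0, 67.1 and 66.9 CPM in TamCre libraries. The deleted libraries all lay below the controls, narrowly so at the nearest pair, and the difference did not pass (log2 fold change -0.28, SE 0.130, edgeR adjusted p = 0.907). No gene did among 12924 in that comparison, where 640 had an unadjusted edgeR p under 0.05 and DESeq2 called 2. The DN3 means were 78.0 ± 16.0 CPM in DeltaMxCre and 97.3 ± 13.4 CPM in MxCre (no test), 116 ± 6.68 CPM in DeltaTamCre and 126 ± 8.16 CPM in TamCre, and 59.8 ± 2.35 CPM in AntiNRR and 72.8 ± 18.9 CPM in IgG.

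**Figure D4:**
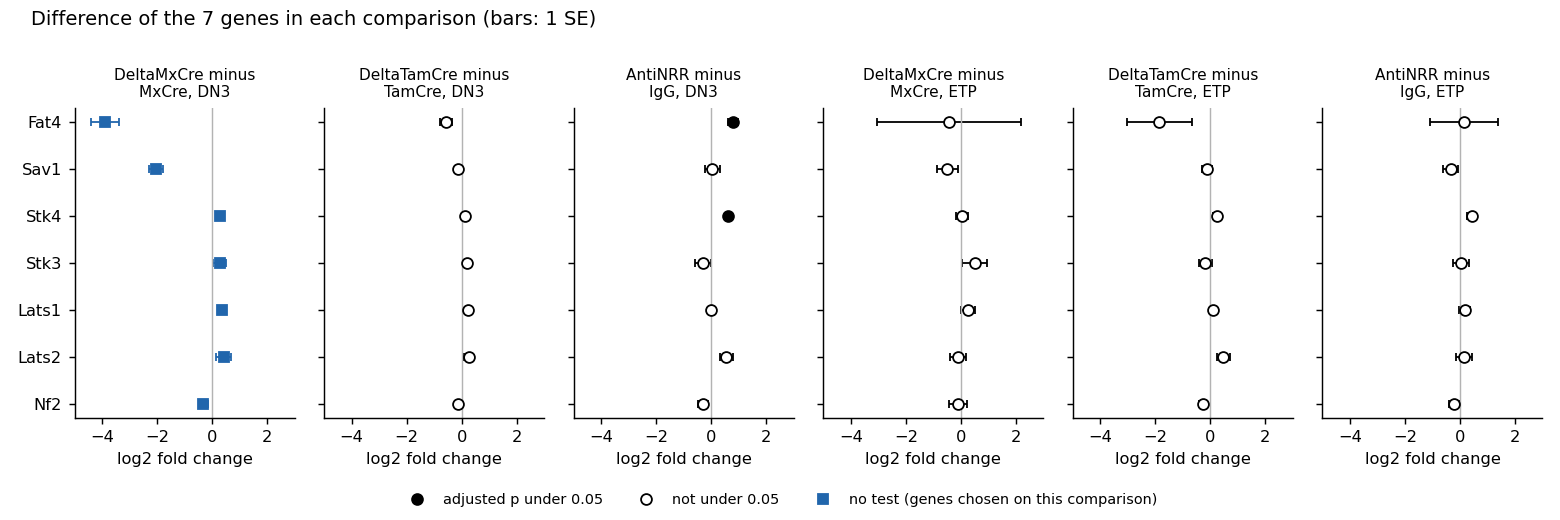
Log2 fold change (first group minus second, bars 1 SE) of the 7 genes in the 6 comparisons of conditions, DN3 in the 3 panels on the left and ETP in the 3 on the right. Filled circles mark Fat4 and Stk4 under AntiNRR in DN3, the calls at an edgeR adjusted p under 0.05, and blue squares mark the untested pI-pC comparison in DN3, with Fat4 at -3.89 and Sav1 at -2.02.

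All 7 genes passed the filter on low counts in every comparison. Under the Notch1 block in DN3, edgeR called 2 of the 7, Fat4 and Stk4, both higher, and 5.61% of all 12658 genes tested (2.65% higher and 2.96% lower). Between stages it called 4 of 7 in IgG libraries (Fat4 and Lats1 higher in DN3, Sav1 and Lats2 lower) and 2 of 7 in AntiNRR libraries (Fat4 and Lats1 higher), beside the shares of 14.7% and 11.6% of all genes. These comparisons share the IgG DN3 or AntiNRR DN3 libraries. No member was called in the ETP comparisons or after tamoxifen, where 0.0416% (pI-pC ETP), 0% (tamoxifen ETP), 0% (antibody ETP) and 0.0827% (tamoxifen DN3) of all genes were called. The test of whether the antibody effect differs between stages called no member and 0 of 13603 genes, with 743 at an unadjusted p under 0.05 and 5 called by DESeq2.

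Other transcripts moved together with these differences, and their part in the results was not tested. In DeltaMxCre DN3 the nuclear RNA Malat1 took 1.18 ± 0.194% of counts and the ribosomal precursor Rn45s 4.88 ± 0.181%, against 0.573 ± 0.216% and 7.75 ± 1.03% in MxCre DN3. MxCre DN3 replicate 3 held the least Malat1 of its group, 0.324% beside 0.711% and 0.685% in replicates 1 and 2. The same replicate was the lowest of its group for Fat4, at 9.01 CPM. The 8 double-positive and later thymocyte markers summed to 706 to 827 CPM in DeltaMxCre DN3 against 544 to 579 CPM in MxCre DN3. In AntiNRR DN3 they summed to 1315 to 1486 CPM against 770 to 878 CPM in IgG DN3, the 8 natural killer and innate lymphoid markers to 228 to 255 CPM against 121 to 151 CPM, and the 7 ETP markers to 196 to 233 CPM against 135 to 155 CPM. Of the double-positive list, Cd8a did not differ beyond its spread in either pair. It averaged 7.01 ± 1.09 CPM in DeltaMxCre DN3 and 6.93 ± 3.40 CPM in MxCre DN3. Under the antibodies it averaged 6.15 ± 1.47 CPM in AntiNRR DN3 and 6.85 ± 3.88 CPM in IgG DN3. The other markers of that list were not read singly. The ETP list averaged 215 CPM in AntiNRR DN3 and 142 CPM in IgG DN3, and Kit alone 179 and 98.8 CPM. The rest of that list together was therefore not higher. The 7 DN3 markers summed to 5535 to 6398 CPM in AntiNRR DN3 against 10596 to 10794 CPM in IgG DN3. Of the killer markers Klrd1 and Ncr1 were at 0 in all 4 DN3 groups of the pI-pC and antibody table, and of the ETP markers Cd34 and Lmo2 were at 0 in AntiNRR DN3. Rn45s took 5.70 ± 1.03% of counts in AntiNRR DN3 and 3.13 ± 0.535% in IgG DN3. Of 15 thymic stromal and endothelial markers, 10 were at 0 in DeltaMxCre DN3, 9 in MxCre DN3, 8 in AntiNRR DN3 and 10 in IgG DN3, among them Foxn1, Krt5, Krt8, Krt14, Col1a2, Col3a1, Dcn and Lum in all 4 groups. The list summed to 287 to 405 CPM in DeltaMxCre DN3 against 295 to 310 CPM in MxCre DN3, and to 390 to 412 CPM in AntiNRR DN3 against 294 to 311 CPM in IgG DN3. Pecam1 and Epcam made up most of these sums. Pecam1 held 204 to 236 CPM in AntiNRR DN3 and 161 to 165 CPM in IgG DN3, and Epcam 66.6 to 84.8 and 69.1 to 77.7 CPM. Fat4 is a long transcript of 17165 exon bases. The 1090 genes of at least 10000 exon bases had a median log2 fold change of 0.08 in DeltaMxCre against MxCre DN3, with 5th and 95th percentiles of -0.78 and 0.83, beside -0.01 for all genes.

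Around the 7 genes, 95 others of the pathway were found in the tables. After pI-pC in DN3 edgeR called 1 of the 71 tested, beside 1.44% of all genes. It was Itgb2, the beta chain of Lfa-1, with 73.6, 68.5 and 60.3 CPM in DeltaMxCre and 24.8, 25.3 and 42.5 CPM in MxCre libraries, 2.18-fold higher without overlap (log2 fold change 1.13, SE 0.212, edgeR adjusted p = 0.0171). The count was 0 without DeltaMxCre DN3 replicate 1, 2 or 3 or MxCre DN3 replicate 1, and 4 without MxCre DN3 replicate 3. Itgb2 was also higher in AntiNRR DN3, with 41.6, 47.2 and 33.3 CPM against 22.7, 18.1 and 19.3 CPM in IgG DN3 (1.01, SE 0.225, edgeR adjusted p = 0.00733). The median log2 fold change of the 71 genes after pI-pC was 0.06, beside -0.01 for all genes. No gene of the lists was called by edgeR after pI-pC in ETP (4 of 70 at an unadjusted p under 0.05, 0 called by DESeq2), after tamoxifen in ETP (1 of 75, 0), under the antibody in ETP (5 of 70, 0) or after tamoxifen in DN3 (11 of 74, 3). Over all genes these counts were 668 and 86 of 12010 after pI-pC in ETP and 640 and 2 of 12924 after tamoxifen in ETP. They were 687 and 28 of 12568 under the antibody in ETP and 2069 and 458 of 13298 after tamoxifen in DN3.

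Nearest to Fat4 in the pathway lists stands Fjx1, a Golgi kinase that phosphorylates Fat-type cadherins. It had 0, 0 and 0.0536 CPM in DeltaMxCre DN3 against 1.72, 1.39 and 0.804 CPM in MxCre DN3. That is 1 count in all against 68, a level 63.3 times higher in MxCre (95% exact interval 10.99 to 2537, counting error only). The difference did not pass by edgeR (adjusted p = 0.0952) and passed by DESeq2 (adjusted p = 0.0172). In tamoxifen DN3, at greater depth, Fjx1 was at 1.95 ± 0.410 CPM in DeltaTamCre and 1.93 ± 0.175 CPM in TamCre (SD, n = 4 each; log2 fold change 0.01, edgeR adjusted p = 0.986), and in antibody DN3 at 0.885 ± 0.966 CPM in AntiNRR and 1.83 ± 1.27 CPM in IgG (-1.03, edgeR adjusted p = 0.771). Dchs1, the ligand cadherin of Fat4, stayed at or under 1.31 CPM on average in all 12 groups and passed the filter in tamoxifen DN3 and in the test of the antibody effect between stages only.

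The effectors that the cascade restrains were scarce. Yap1 averaged 1.56 ± 1.25 CPM in DeltaMxCre DN3 and 5.64 ± 3.67 CPM in MxCre DN3 (log2 fold change -1.84, SE 0.705, edgeR adjusted p = 0.215), with MxCre DN3 replicate 3 at 1.61 CPM. It averaged 2.88 ± 1.19 CPM in DeltaTamCre DN3 and 3.12 ± 1.48 CPM in TamCre DN3, and 1.71 ± 0.221 CPM in AntiNRR DN3 and 2.14 ± 1.47 CPM in IgG DN3, neither of which passed. Wwtr1 (Taz) had 0 counts in DeltaMxCre, DeltaTamCre and AntiNRR DN3 and 2, 6 and 1 counts in the MxCre, TamCre and IgG DN3 groups. Tead4 had no count in any library. Tead1, Tead2 and Tead3, the DNA-binding partners of Yap1, averaged at most 1.32, 6.20 and 1.85 CPM in any group and passed no edgeR test.

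The adaptors that work with Stk4 in lymphocytes were abundant. Rassf5 averaged 215 ± 4.07 CPM in DeltaMxCre DN3 and 173 ± 6.12 CPM in MxCre DN3 (log2 fold change 0.31, SE 0.119, edgeR adjusted p = 0.215). It averaged 220 ± 31.7 CPM in AntiNRR DN3 and 210.3 ± 11.4 CPM in IgG DN3 (0.06, edgeR adjusted p = 0.880). Mob1a averaged 127 ± 9.60 CPM in DeltaMxCre DN3 and 84.7 ± 21.1 CPM in MxCre DN3, which edgeR did not call (0.58, adjusted p = 0.0999) and DESeq2 did (adjusted p = 0.0473). Mob1b averaged 36.8 ± 4.00 CPM in DeltaMxCre DN3 and 30.2 ± 0.537 CPM in MxCre DN3 (edgeR adjusted p = 0.501).

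Under the Notch1 block in DN3, edgeR called 7 of 69 other pathway genes, 6 higher and 1 lower, beside 5.61% of all genes (2.65% higher and 2.96% lower). With a spread shared by all 4 DN3 groups the count was 3. Besides Itgb2, the higher ones were Foxo3, a transcription factor phosphorylated by Mst1 (log2 fold change 0.42), the adaptor Rassf2 (0.41), the kinase Tnik (0.38), and Fam40b (Strip2, 0.51) and Fgfr1op2 (0.31) of the STRIPAK phosphatase complex, which opposes Mst1 and Mst2. The edgeR adjusted p of these 5 ran from 0.0166 to 0.0493. Rassf2 stood at 217 ± 4.15 CPM in AntiNRR DN3 and 162 ± 4.55 CPM in IgG DN3 (SD, n = 3 each). Ptpn14, a phosphatase that binds Yap1, was lower, with 13.0, 13.9 and 9.85 CPM in AntiNRR DN3 against 23.5, 30.4 and 27.2 CPM in IgG DN3 (-1.15, SE 0.273, edgeR adjusted p = 0.0116). The median over the 69 was 0.12, beside -0.01 for all genes.

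Between stages in IgG libraries, edgeR called 11 of 70 other pathway genes, 6 higher and 5 lower in DN3, a share near the 14.7% of all genes called (7.12% higher and 7.6% lower), so the genes below are given singly and not as a result about the pathway. Ptpn14 was 4.72-fold higher in DN3, with 27.0 ± 3.42 CPM in IgG DN3 and 5.75 ± 1.46 CPM in IgG ETP (edgeR adjusted p = 0.000254). Strn3 (log2 fold change 0.91) and Slmap (0.78) of STRIPAK and the kinases Taok1 (0.73), Mark3 (0.53) and Map4k4 (0.47) were also higher. Among those lower in DN3 were Itgb2 (-1.70), Dock5 (-1.36) and the phosphatase subunit Ppp2r1a (-0.44). Map4k5, an upstream kinase, had 0 counts in the 3 IgG DN3 libraries and 117 in the 3 IgG ETP libraries, at least 52.3-fold lower by a limit of 3 counts over the group.

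Under AntiNRR the stage comparison called 14 of 69, 10 higher and 4 lower in DN3, beside 11.6% of all genes (5.75% higher and 5.87% lower). The 12 with the lowest p were the kinases Tnik (log2 fold change 0.96), Taok1 (0.87), Mink1 (1.01), Map4k4 (0.59) and Taok2 (0.66), the adaptors Rassf1 (1.54) and Rassf3 (-1.49), Dock8 (0.74), Slmap (0.68), Inadl (0.72), Dock5 (-1.88) and Itgb2 (-0.97). The count was 6, 4 and 9 without AntiNRR DN3 replicate 1, 2 and 3, and in the IgG stage comparison 7 without IgG DN3 replicate 2 or 3. Under the block in DN3 it was 4 and 3 without AntiNRR DN3 replicate 1 and 2, and 2, 1 and 1 without IgG DN3 replicate 1, 2 and 3.

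Among the genes whose levels ran most like those of Fat4 over the 24 pI-pC and antibody libraries, of 9246 genes averaging 5 CPM or more, were Kcnh3, a potassium channel (Pearson r of log2(CPM + 1) 0.919), St3gal1, a sialyltransferase (0.907) and Zfp219 (0.902). Within the 12 DN3 libraries r was 0.935, 0.908 and 0.839 for Kcnh3, St3gal1 and Zfp219, and within the 12 ETP libraries 0.665, 0.417 and 0.650. Kcnh3 averaged 4.16 ± 1.69 CPM in DeltaMxCre DN3 and 14.2 ± 6.90 CPM in MxCre DN3, and 50.4 ± 2.66 CPM in AntiNRR DN3 and 24.8 ± 2.26 CPM in IgG DN3. Over the 8 tamoxifen DN3 libraries r with Fat4 was -0.05, -0.11 and -0.27 in the same order.

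Among the genes most like Sav1 were the ribosomal protein genes Rpl13a (r = 0.828), Rplp0 (0.823) and Rpsa (0.815). These symbols had no entry among the genes of the tamoxifen libraries. Within the 12 DN3 libraries their r with Sav1 lay between 0.784 and 0.826, and within the 12 ETP libraries between 0.599 and 0.757. Rpl13a averaged 1750 ± 77.5 CPM in DeltaMxCre DN3 and 2501 ± 239 CPM in MxCre DN3. Fat4 and Sav1 did not run alike over the 24 libraries (r = -0.04). These correlations share libraries, stages and treatments, and they describe likeness only.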

How the data were processed

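RNA was sequenced from 40 libraries in 12 groups. The values are estimated counts per gene, raw and not normalized as deposited, made by the authors on the mm10 build with Cuffdiff 2.1.1, Cufflinks, Bowtie2 2.1.0.0, TopHat2 2.0.9 and FastQC 0.10.0, which the submitters' processing notes name without an order. Of these values 0.712%, 1.19% and 0.762% in the 3 tables were more than 0.01 from a whole number. Per the labels, the pI-pC and antibody libraries started from 10 ng of RNA (16 PCR cycles), tamoxifen DN3 from 100 ng (12) and tamoxifen ETP from 1 ng (15), each with another kit, so levels were compared only within a table. PCR duplicates cannot be told from separate molecules.

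Counts were rounded and tested with the quasi-likelihood test of edgeR 4.0.16 (R 4.3.3), with TMM scaling and filterByExpr at a minimum count of 10 and a minimum total of 15. Each of the 6 treatment comparisons used its own 2 groups. The 2 stage comparisons used the IgG or the AntiNRR libraries, and the stage difference of the antibody effect used all 4 groups. P-values were adjusted by Benjamini-Hochberg over all genes tested, and a call is an adjusted p under 0.05. The SE of a log2 fold change was derived from the F statistic. The code was tested on simulated data. DESeq2 1.42.0, other scaling, filters, a shared spread, a replicate block and leaving out each library were the alternatives. CPM were TMM-scaled over each table.

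The named genes are the 7 members, the pathway genes called in each comparison (the 12 with the lowest p at most), fixed key partners, and the 4 genes most correlated with Fat4 and with Sav1. Some genes that this rule names are not reported here. The members and lists were chosen with earlier results of these data known. Exon lengths and overlaps come from GENCODE M21 (GRCm38). Stage in the pI-pC and tamoxifen groups was not tested.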

Additional observations from a re-analysis of the deposited data

Results flagged for a closer look

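Fat4 in the DeltaTamCre DN3 group had 1 library far from the other 3. Replicate 2 held 5.37 CPM, beside 3.06, 3.26 and 2.92 CPM in replicates 1, 3 and 4, and its gap to the nearest of them was 0.863 of the range of the group. Chance alone gives a gap beyond the limit of the screen in about 1 in 20 groups of this size. All 7 genes were screened in every such group, so a single flag among them can arise by chance.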

How the results depend on the processing

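Of the log2 fold changes of the 7 genes recomputed under the alternatives, 745 kept their direction and, where tested, their side of the threshold, 18 kept the direction but lost the call, and 28 turned round, all in uncalled values. DESeq2 called 86 genes after pI-pC in ETP and 527 in DN3, 2 and 458 after tamoxifen in ETP and DN3, 28 under the antibody in ETP and 5 for its stage difference, and 3 pathway genes each after pI-pC and after tamoxifen in DN3. With no filter beyond 1 count edgeR called 18 (pI-pC ETP), 347 (pI-pC DN3) and 8 (antibody ETP), and 2 pathway genes in pI-pC DN3. With a spread shared by the 4 groups of the stage it called 399 genes and 2 pathway genes in pI-pC DN3, and in antibody DN3 3 pathway genes and 1 of the 7 members. The cause was not tested. In no comparison did same-numbered libraries all correlate above 0.1 in their deviations from the group means, the limit set for pairing. Their r was 0.047 to 0.25 in tamoxifen ETP, where 2 of 4 libraries matched their own number best, -0.026 to 0.097 in antibody DN3 (2 of 3), -0.64 to -0.018 in tamoxifen DN3 (0 of 4) and -0.22 to 0.15 in the others (0 or 1 of 3). With the replicate number as a block edgeR called 14 genes in pI-pC ETP and 0 in tamoxifen DN3, and counts over all genes in the other comparisons moved by less than 1.5 times. With the longest transcript as length, 56 of 84 group levels per kb moved by more than 1 SD.

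Leaving out 1 library at a time gave 0 to 17 calls over all genes in pI-pC ETP, 12 to 403 in pI-pC DN3, 0 to 1 in tamoxifen ETP, 0 to 8 in tamoxifen DN3, 0 to 5 in antibody ETP, 351 to 677 in antibody DN3, 941 to 1883 between stages in IgG, 549 to 1661 in AntiNRR and 0 to 3 for the stage difference of the antibody effect. Pathway genes called were 0 to 4 in pI-pC DN3, 1 to 5 in antibody DN3, 7 to 16 between stages in IgG and 4 to 13 in AntiNRR, and members called were 1 to 2, 2 to 4 and 1 to 2 in the last 3. Uncalled log2 fold changes that turned round ranged in pI-pC ETP between -6.79 and 0.27 (Fat4), -0.12 and 0.15 (Stk4), -0.22 and 0.039 (Lats2) and -0.35 and 0.16 (Nf2). In antibody ETP they ranged between -0.21 and 0.54 (Fat4), -0.11 and 0.21 (Stk3) and -0.14 and 0.47 (Lats2), and in antibody DN3 between -0.14 and 0.25 (Sav1) and -0.062 and 0.071 (Lats1, also 0.00044 by DESeq2 and 0.00035 with its size factors). Between stages in IgG they ranged between -0.35 and 0.19 (Stk3) and -0.090 and 0.024 (Stk4), and for the stage difference between -0.28 and 0.078 (Nf2). Depth limits Fat4 in ETP, where a group holds 26 to 127 counts.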

Other observations

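Around the 7 genes, the lists of pathway genes were read one by one, some genes standing on more than one list. Under the Notch1 block in DN3, edgeR called 2 of the 10 tested Mst1 partners in lymphocytes (Itgb2 and Foxo3, both higher), 2 of 17 other kinases and adaptors upstream of Lats (Tnik and Rassf2, higher) and 2 of 16 STRIPAK genes (Fam40b and Fgfr1op2, higher), beside 5.61% of all genes tested. It called 1 of 12 junction and polarity genes and 1 of 10 Yap and Taz target genes, in both cases Ptpn14, which was lower. The median log2 fold changes were 0.22, 0.16, 0.06, 0.14 and -0.26 for these 5 lists in the same order, beside -0.01 for all genes tested. None of the 5 genes tested among Yap1, Wwtr1 and the Tead and Vgll factors was called (median -0.09), nor was Fjx1, the only one tested of the cadherin list.

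After pI-pC in DN3 the same lists had median log2 fold changes of 0.26 (Mst1 partners, 1 of 10 called), 0.09 (kinases and adaptors, 0 of 17), 0.04 (STRIPAK, 0 of 16), -0.04 (junction and polarity, 0 of 12), -0.26 (Yap and Taz targets, 0 of 12) and -0.06 (Yap1, Tead and Vgll factors, 0 of 5) by edgeR, beside -0.01 for all genes, of which 1.44% were called. Of all 71 together, 18 had an unadjusted edgeR p under 0.05 and DESeq2 called 3. Over all 12675 genes these counts were 2042 and 527. After tamoxifen in DN3 the medians of these 6 lists ranged between -0.02 and 0.24, beside 0.01 for all genes. EdgeR called 0 of the 74 genes (0.0827% of all genes), with 11 at an unadjusted edgeR p under 0.05 and 3 called by DESeq2. Over all 13298 genes, 2069 had an unadjusted edgeR p under 0.05 and DESeq2 called 458.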
